A study of Homo sapiens with 6 samples.

Results

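R-loop peaks were examined at 10 human heat shock protein genes, which were chosen by name from GENCODE release 44 mapped to GRCh37 (hg19): HSPA1A, HSPA1B, HSPA5, HSPA8, HSPA9, HSP90AA1, HSP90AB1, HSPD1, HSPE1 and DNAJB1. They are 10 of 20098 protein-coding genes on chromosomes 1 to 22 and X, among 64486 annotated genes. A peak was counted for a gene when it overlapped the gene record or the 2 kb on either side of it by at least 1 bp. By this rule 20 of the 10231 peaks listed for untreated cells and 22 of the 11085 peaks listed for treated cells belonged to these genes.

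The cells were HEK293T, a human embryonic kidney cell line of wild-type genotype, either left without treatment or incubated with 10 μM N2-heptynyl-dG for 3 h. N2-heptynyl-dG is a deoxyguanosine analog with an alkynyl chain on its exocyclic amino group that cells can incorporate into DNA, and the comparison asks where R-loops lie with and without it. All cells were then exposed to 5 mM N3-kethoxal for 10 min, which reacts with unpaired guanine, so that single-stranded DNA can be biotinylated, enriched and sequenced with its strand kept (spKAS-seq). The labels give 2 untreated samples, 2 treated samples and 2 inputs, and 1 list of R-loop peaks per condition was analysed here. Each list gives a chromosome, start, end and strand, with no height, fold or p-value. There is therefore no spread between replicates, no depth behind a peak and no test between conditions, and every value below describes the lists.

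An R-loop forms when RNA pairs with the template strand of DNA and leaves the other strand single-stranded, most often behind RNA polymerase near promoters and near transcript ends. Heat shock proteins are chaperones that hold or refold other proteins: HSP70 proteins work with J-domain proteins such as DNAJB1, HSP90 proteins mature kinases and receptors, and the HSPD1 and HSPE1 proteins form the folding chamber of mitochondria. Many of their genes carry heat shock elements, inverted repeats of GAA bound by heat shock factors, and HSPA5 carries an element that answers stress in the endoplasmic reticulum (ER).

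The sequences just upstream of the start sites are shown because they hold the elements whose place inside or outside the peaks is given for each gene, and HSP90AB1 is printed for comparison without such an element. Peak borders lie in steps of 250 bp, so the place of an element near a border is known only to within a step. All were read from GRCh37 on the strand of the gene, 5′ to 3′. The heat shock element was searched as GAANNTTC or TTCNNGAA, and as 3 alternating units with the same spacing, on both strands of the 300 bases before each canonical start site. Capitals mark the heat shock elements, overlapping ones joined, and in HSPA5 they mark the ER stress element, searched as CCAAT and CCACG 9 bases apart. The first line is chr6:31783170-31783319 (plus strand), the second chr6:31795365-31795514 (plus), the third chr9:128003662-128003772 (minus), the fourth chr11:122932879-122932908 (minus), the fifth chr14:102553382-102553531 (minus), the sixth chr6:44214688-44214823 (plus), the seventh chr2:198364784-198364813 (minus) and the last chr19:14629220-14629359 (minus).
HSPA1A: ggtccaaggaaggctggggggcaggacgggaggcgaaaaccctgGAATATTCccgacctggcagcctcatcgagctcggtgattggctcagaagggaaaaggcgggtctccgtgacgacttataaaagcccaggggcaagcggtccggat
HSPA1B: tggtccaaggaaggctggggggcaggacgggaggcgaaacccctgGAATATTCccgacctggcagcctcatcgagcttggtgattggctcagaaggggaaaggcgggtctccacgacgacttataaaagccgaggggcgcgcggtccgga
HSPA5: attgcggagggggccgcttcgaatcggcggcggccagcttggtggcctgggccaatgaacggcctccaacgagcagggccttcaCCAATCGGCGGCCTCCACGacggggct
HSPA8: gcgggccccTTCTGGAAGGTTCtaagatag
HSP90AA1: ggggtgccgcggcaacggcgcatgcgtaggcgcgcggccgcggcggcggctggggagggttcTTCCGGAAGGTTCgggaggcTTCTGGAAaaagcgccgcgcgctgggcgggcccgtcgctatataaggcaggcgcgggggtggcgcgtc
HSP90AB1: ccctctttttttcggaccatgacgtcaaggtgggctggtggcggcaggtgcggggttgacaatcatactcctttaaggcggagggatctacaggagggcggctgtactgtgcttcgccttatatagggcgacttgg
HSPD1: cattTTCTGGAAAGTTCTGGAAccgagcga
DNAJB1: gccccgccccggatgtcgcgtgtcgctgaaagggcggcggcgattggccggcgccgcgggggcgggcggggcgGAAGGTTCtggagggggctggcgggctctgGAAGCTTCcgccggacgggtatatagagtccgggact

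A heat shock element of at least 2 units lay in the 300-base window of 6 of the 10 genes (HSPA1A, HSPA1B, HSPA8, HSP90AA1, HSPD1 and DNAJB1), against 11.8% of 20094 protein-coding windows. HSPE1 was not counted because the elements it shares with HSPD1 lie across and beyond the far edge of its window. The form with 3 units lay in 3 of the 10 (HSPA8, HSP90AA1 and HSPD1), against 0.408%. The ER stress element was found only in the HSPA5 window among the 10, and in 0.109% of all windows. TATAAA was found in HSPA1A and HSPA1B (11.2% of all windows), CCAAT in 5 genes (37.8%) and GGGCGG, a GC box, in all 10 (60.4%). These are matches of letters and no binding was measured.

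All 10 genes had an R-loop peak in both lists, where the same rule called 41.8% of protein-coding genes in untreated cells, 43.9% in treated cells and 36.4% in both. The median record of the 10 genes was 7126.5 bp against 27256.5 bp for protein-coding genes, but the records of HSP90AA1 (58958 bp), DNAJB1 (45623 bp) and HSPD1 (30154 bp) were longer than that median. Counting each gene and each of its peaks as a pair, 19 of 23 untreated pairs (82.6%) and 21 of 25 treated pairs (84.0%) had the peak on the strand of the gene. Over all protein-coding genes the shares were 69.4% and 68.7%. Peaks lay at the start site, past the transcript end, or both, with few inside the genes.

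A peak on the gene strand within 1 kb of the canonical start site was present at 9 of the 10 genes in both lists, DNAJB1 being the exception. The background was 18.4% of protein-coding genes in untreated and 20.4% in treated cells. HSPA1A is counted here, although 97.9% of the 50-base words under its only peak also occur at HSPA1B. In the 5 kb after the canonical transcript end, 8 genes had a peak on the gene strand in untreated cells and 9 in treated cells, where the background was 16.5% and 16.9%. Peaks at both ends were found at 7 genes in untreated cells (HSPA1B, HSPA5, HSPA8, HSP90AA1, HSP90AB1, HSPD1 and HSPE1) and at those and HSPA9 in treated cells. Such a pair of ends was found at 5.65% and 6.24% of protein-coding genes.

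**Figure D1:**
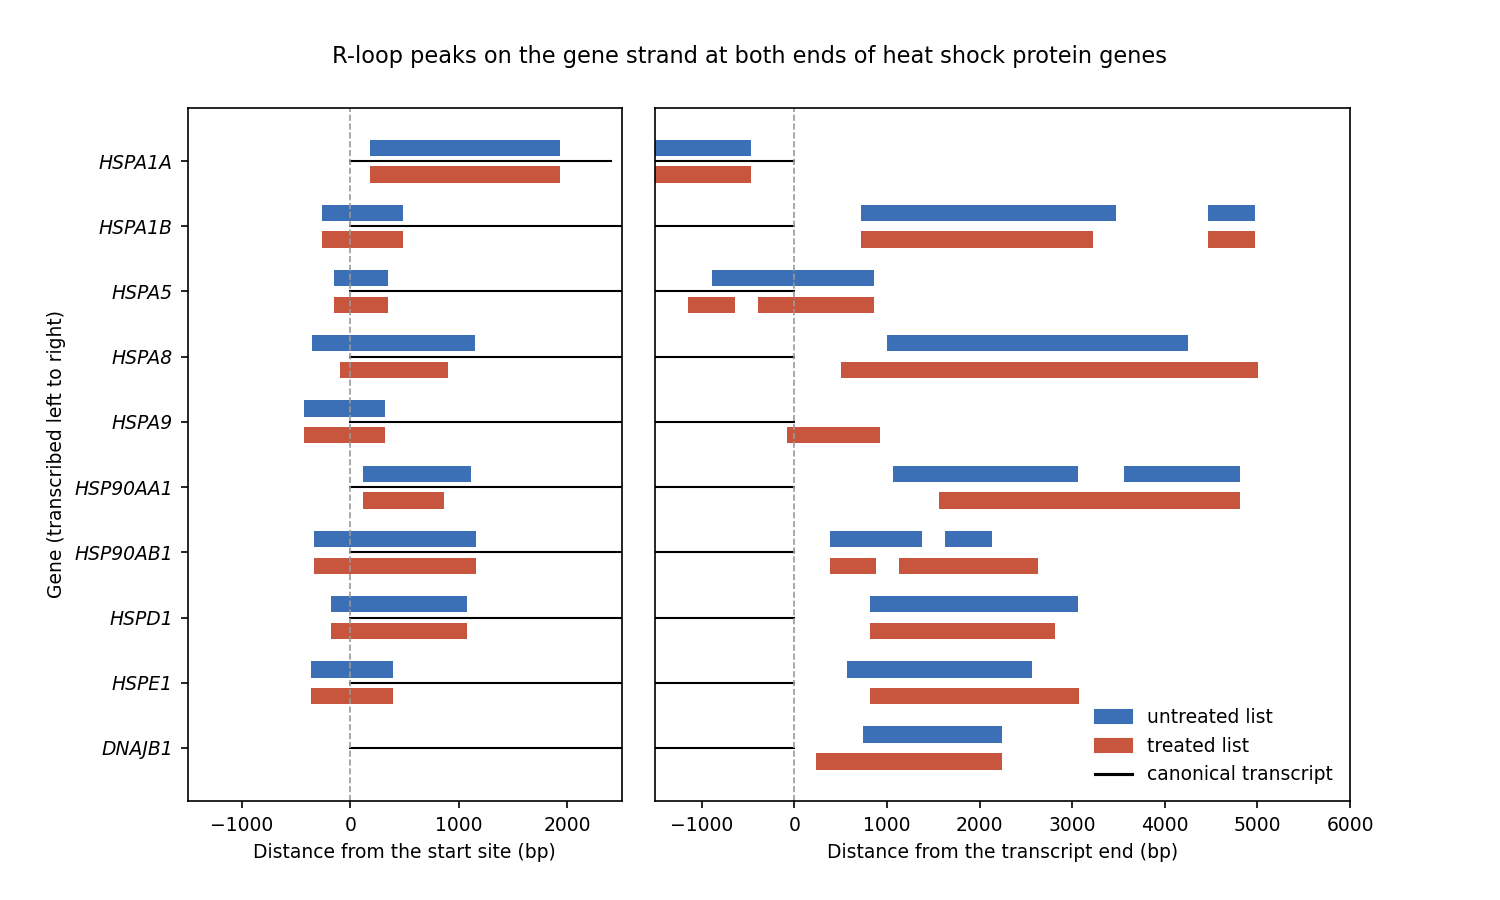
Gene-strand R-loop peaks of the 10 genes, placed by distance in bp from the canonical start site (left) and from the transcript end (right), with each gene transcribed from left to right. Blue bars are untreated and red bars treated peaks, and black lines are the transcripts, cut off at the panel edges. Start peaks are present at all genes but DNAJB1 and mostly coincide between the lists. The first peak after the end starts between 237 and 1563 bp past it at 7 genes, and at HSPA5 and HSPA9 it spans the end.

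HSPA1A and HSPA1B encode the main stress-inducible HSP70 of the cytosol from single-exon genes 12195 bp apart on chromosome 6. The HSPA1A peak was 1750 bp wide and identical in both lists, at chr6:31783501-31785250 on the plus strand. It ran from 181 to 1930 bp after the start site and covered 33 bp of the 5′ untranslated region and 1717 bp of coding sequence. Its heat shock element, at -106 to -99 from the start site, lay outside every peak. The HSPA1B start peak was 750 bp wide and also identical in both lists, but lay across the start site, from -264 to 485 bp. It held the heat shock element of HSPA1B, at -105 to -98.

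The genes also differed past their ends. HSPA1B had a downstream peak of 2750 bp in untreated cells and 2500 bp in treated cells, starting 720 bp after the transcript end in both, where the annotation has a long noncoding RNA on the same strand. A further peak of 500 bp, 4470 bp after the end and at the 5′ part of SNHG32, was the same in both lists. After HSPA1A the next peak on its strand was the HSPA1B start peak, 9532 bp past the end. The coding sequences of both genes are 1923 bases long and alike at 1919 positions, or 99.8%. Of the 50-base words under the HSPA1A peak, 97.9% also occurred at HSPA1B, against 32.8% of those under the HSPA1B start peak that occurred at HSPA1A. The aligner ran at its default settings, and whether reads with more than 1 best place were filtered afterwards is not given in the sources used here. The reads behind the HSPA1A peak therefore cannot be assigned to HSPA1A or HSPA1B from its sequence, while the HSPA1B downstream peak shared 0 words with HSPA1A.

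HSPA8 encodes the constitutive HSP70 of the cytosol and had the widest peaks of the 10 genes. Its downstream peak on the minus strand was 3250 bp wide in untreated cells, at chr11:122923944-122927193, or 1004 to 4253 bp after the transcript end. In treated cells it was 4500 bp wide, from 504 to 5003 bp after the end, and contained the whole untreated peak. Only 1 peak of the treated list was wider, while 16 peaks of the untreated list were wider than 3250 bp. No other annotated gene lay under it, and the next protein-coding gene on that strand, BSX, was 75655 bp from the HSPA8 end.

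At the HSPA8 start site the change in width was the opposite. The peak was 1500 bp in untreated cells, from -349 to 1150 bp, and 1000 bp in treated cells, from -99 to 900 bp, so that the treated peak lay inside the untreated one. The HSPA8 window has heat shock elements of 3 units at -230 to -218 and at -55 to -43. The near element, printed above, was inside the peak in both lists, and the far one was inside the untreated peak only. The border next to the far element moved by 250 bp, a single step of the lists.

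HSPA5 encodes BiP, the HSP70 of the endoplasmic reticulum. Its start peak was 500 bp wide, from -154 to 345 bp, and identical in both lists. The ER stress element at -66 to -48 lay within it. The peak at the other end was 1750 bp in untreated cells and spanned the transcript end, with 895 bp in the 3′ untranslated region and 855 bp after it. In treated cells 2 peaks took its place, 1 of 1250 bp with the same 3′ border and 1 of 500 bp wholly inside the 3′ untranslated region, with 250 bp between them. The 3′ end of the RABEPK record, on the opposite strand, lies 692 bp past the HSPA5 end.

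HSPA9 encodes mortalin, the mitochondrial HSP70. Its start peak of 750 bp ran from -431 to 318 bp and was identical in both lists. A second peak lay inside the gene at exon 4, with 500 bp in untreated cells and 1250 bp in treated cells, and only 250 bp of it shared. A peak of 1000 bp across the transcript end, from -76 to 923 bp, was listed for treated cells only. The nearest untreated peak was 9001 bp away.

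**Figure D2:**
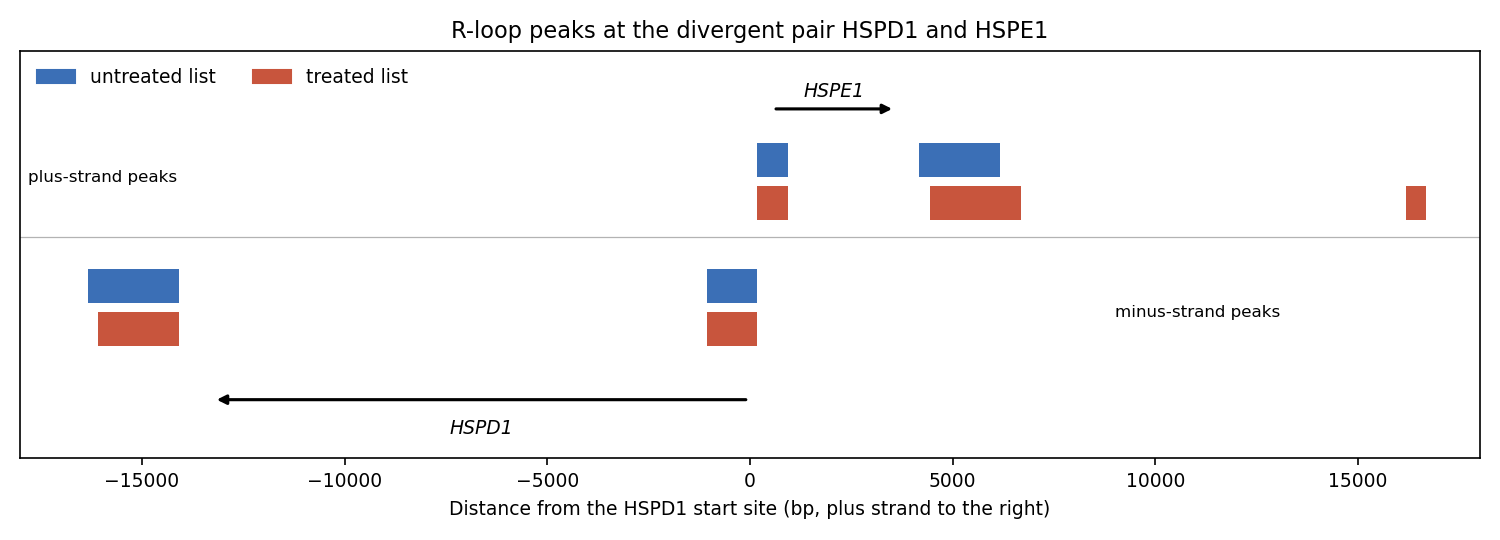
R-loop peaks at HSPD1 and HSPE1, placed by distance in bp from the HSPD1 start site, with the plus strand to the right. Bars above the line are plus-strand and bars below it minus-strand peaks, blue for untreated and red for treated cells, and arrows are the canonical transcripts. The start peaks of 1250 bp and 750 bp meet between the start sites in both lists, and each gene has a peak of 2000 to 2250 bp past its end.

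HSPD1 encodes HSP60, the ring of the mitochondrial chaperonin, and HSPE1 encodes HSP10, its lid. The genes are transcribed away from each other from start sites with 538 bases between them on chromosome 2. Each had its own start peak, identical in both lists. The HSPD1 peak was on the minus strand at chr2:198363492-198364741 and the HSPE1 peak on the plus strand at chr2:198364742-198365491, so that the last base of the former was followed by the first base of the latter. This border lay 177 bp from the HSPD1 start site and 361 bp from the HSPE1 start site. The heat shock elements of the shared promoter, at -245 to -228 from the HSPD1 start site, fell on the HSPE1 side of the border. No 50-base word under these start peaks occurred elsewhere in the genome.

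Abutting start peaks were found at other divergent promoters too. Of 978 divergent pairs of protein-coding genes with start sites at most 1 kb apart, 91 (9.30%) had a gene-strand start peak for both genes in untreated cells, and at 60 of these 91 the peaks abutted. In treated cells the numbers were 97 (9.92%) and 62. Over the whole untreated list a minus-strand peak was directly followed by a plus-strand peak at 387 places, and a plus-strand peak by a minus-strand peak at 3. The treated list had 435 and 4 such places. HSPD1 and HSPE1 were 1 of the 60 abutting pairs in untreated cells and 1 of the 62 in treated cells.

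Past the HSPD1 end a minus-strand peak of 2250 bp started 817 bp after the transcript in untreated cells. In treated cells it had the same near border and was 2000 bp wide. Past the HSPE1 end a plus-strand peak of 2000 bp started at 569 bp in untreated cells and 1 of 2250 bp started at 819 bp in treated cells. The annotation also places the read-through gene HSPE1-MOB4 there. A treated-only peak of 500 bp lay at the start of MOB4 and counted for HSPD1 because the longest HSPD1 record reaches over it on the other strand. It was 10001 bp from the nearest untreated peak. Elsewhere opposite-strand peaks were far away. For the other 8 genes, the nearest opposite-strand peak lay at least 11136 bp from the start site in untreated cells and 18570 bp in treated cells, and at HSPA8 it was 679350 bp and 368100 bp away.

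HSP90AA1 and HSP90AB1 encode the inducible and the constitutive HSP90 of the cytosol. At HSP90AA1 the start peak began 115 bp after the canonical start site in both lists and ended at 1114 bp without and 864 bp with treatment. The heat shock elements of its promoter, at -88 to -76 and -68 to -61, therefore lay outside all peaks. The HSP90AB1 start peak lay across the start site, from -337 to 1162 bp, with 1500 bp in both lists, of which 1068 bp were in the first intron.

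Both HSP90 genes had peaks past their ends. In untreated cells HSP90AA1 had peaks of 2000 bp and 1250 bp, starting 1063 bp and 3563 bp after the end, and in treated cells a single peak of 3250 bp overlapped both, from 1563 to 4812 bp. The treated peak also lay over RN7SL472P, a miscellaneous RNA gene annotated on the same strand, which neither untreated peak overlapped. Of the 50-base words under the treated peak, 20.4% occurred elsewhere in the genome, against 12.2% under the untreated peak of 2000 bp. The next protein-coding gene on that strand lies 1177020 bp past the end. HSP90AB1 had a peak of 1000 bp from 381 bp after the end and a second of 500 bp in untreated cells. In treated cells the first was 500 bp and the second 1500 bp wide, so the gap between them lay elsewhere. These peaks were on the HSP90AB1 strand over SLC35B2 and MIR4647, which lie on the opposite strand. The 3′ end of the SLC35B2 record lies 213 bp past the HSP90AB1 end.

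DNAJB1 encodes the J-domain protein that stimulates HSP70 in the heat shock response. It had no peak at its canonical start site in either list, although its window holds heat shock elements at -77 to -70 and -47 to -40. Its peak on the gene strand lay past the end. This peak was 1500 bp wide in untreated cells, from 737 to 2236 bp after the transcript end, and 2000 bp wide in treated cells, from 237 to 2236 bp. The distance from the start site to the peak was 4365 bp without and 3865 bp with treatment, since the canonical transcript spans only 3629 bp. A second peak of 500 bp on the plus strand, at the start of TECR and over MIR639, counted through the longest DNAJB1 record. It was listed for untreated cells only and was 15001 bp from the nearest treated peak.

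The start and the downstream peaks differed in width and base composition. The 9 start peaks had a median width of 1000 bp without and 750 bp with treatment, and the downstream peaks counted under the rule for 2 kb, 9 and 10 in number, a median of 2000 bp in both. The median over all peaks was 750 bp in both lists. Peaks of at least 2000 bp were 5 of 20 and 6 of 22, against 6.36% and 5.64% of all peaks. Within the 5 kb after the end, the 11 distinct peaks of these genes had a median width of 1750 bp without and 2000 bp with treatment, where the median for all protein-coding genes with such a peak was 1000 bp in both.

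The GC content of the start peaks ranged from 56.4% to 65.2% in untreated cells, with a median of 63.7%, and from 56.7% to 65.2% in treated cells with the same median. Downstream peaks had a median GC content of 46.0% (40.8% to 55.3%) and 47.5% (39.0% to 53.6%). No downstream peak was as GC-rich as the least GC-rich start peak of its list. GC content was not measured for the start and downstream peaks of all protein-coding genes. Whether this contrast is particular to these genes was therefore not tested. All listed peaks had medians of 56.2% and 57.6%. GC skew, the excess of G over C divided by their sum on the peak strand, had a median of 0.063 in the start peaks of both lists and of 0.016 and 0.009 in the downstream peaks, against 0.000 and -0.013 over all peaks. The skew ranges overlapped. The highest skew at a start site was at HSPA8 (0.165 and 0.178), and the lowest was at HSPA9 (-0.071).

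**Figure D3:**
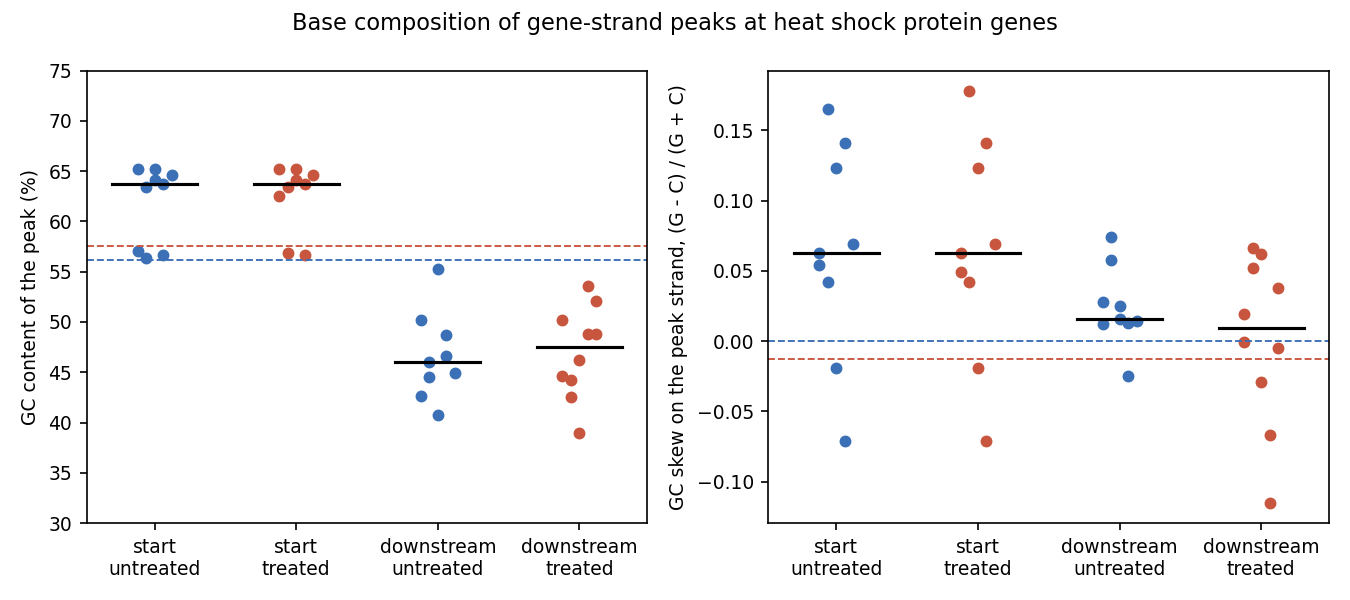
GC content in percent (left) and GC skew on the peak strand (right) of each gene-strand start and downstream peak at the 10 genes, blue for untreated and red for treated cells. Black bars are medians and dashed lines the medians over all peaks of each list. Start peaks lie at 56.4% GC or above and downstream peaks at 55.3% or below, while the skews of the groups overlap.

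A G-quadruplex pattern, 4 runs of at least 3 G with loops of up to 7 bases on the peak strand, was present in 3 of 9 start peaks (HSP90AB1, HSPD1 and HSPE1) in both lists and in 3 downstream peaks (HSPA1B, HSPA8 and HSP90AA1). The share over all peaks was 18.2% in untreated and 19.3% in treated cells. N3-kethoxal labels G on the single strand. To show the G runs within wide peaks of low GC content, the most G-rich 100 bases common to both lists, chosen for their G content, are given for the widest treated downstream peaks, at chr11:122924575-122924674 (minus), 3523 to 3622 bp after the HSPA8 end with 40 G, and at chr14:102543310-102543409 (minus), 3670 to 3769 bp after the HSP90AA1 end with 42 G. Capitals mark runs of at least 3 G.
HSPA8 downstream: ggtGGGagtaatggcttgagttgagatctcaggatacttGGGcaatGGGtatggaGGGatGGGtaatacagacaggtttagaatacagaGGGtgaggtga
HSP90AA1 downstream: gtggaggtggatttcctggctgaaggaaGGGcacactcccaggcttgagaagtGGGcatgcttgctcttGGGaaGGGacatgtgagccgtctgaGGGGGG

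Between the lists, 19 of the 20 untreated peaks of these genes overlapped a treated peak, and 20 of the 22 treated peaks overlapped an untreated peak, all on the same strand. The background was 74.8% of untreated and 69.5% of treated peaks. Of the 20 untreated peaks, 7 had an exact counterpart in the treated list, with both borders and the strand alike, where the background was 32.2%. All 7 were start peaks, that of HSPA1A included. At the start sites, 7 of 9 untreated peaks (77.8%) were identical in the treated list, against 43.6% of such peaks over all protein-coding genes. In the 5 kb after the end 1 of 11 was (9.09%), against 20.7%. The identical peak after an end was that of 500 bp at the 5′ part of SNHG32, past HSPA1B. The start peaks that did change, at HSPA8 and HSP90AA1, were narrower in treated cells by 500 and 250 bp.

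Downstream borders moved in both directions. From untreated to treated cells the downstream peak was wider by 1250 bp at HSPA8, by 500 bp at DNAJB1 and by 250 bp at HSPE1, whereas it dropped by 250 bp at HSPA1B and HSPD1. At HSPA5, HSP90AA1 and HSP90AB1 peaks were split or joined. The peaks are built from steps of 250 bp, so that a change of 250 bp is the smallest the lists can hold. Summed over the 10 genes, the untreated peaks were 27750 bp wide and the treated peaks 32000 bp. These sums depend on the counting rule. The untreated sum leaves out the second HSP90AA1 peak of 1250 bp, which begins 3563 bp past the end. The treated peak of 3250 bp that overlaps it counts whole. Each sum also holds a 500 bp peak at another gene, TECR in untreated and MOB4 in treated cells. Whether any of these differences exceeds the spread between replicates cannot be told from 1 list per condition.

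Other chaperone and heat shock response genes were read in the same way. Of 93 such genes, 69 had a peak in untreated cells (74.2%, 95% Wilson interval 64.5% to 82.0%) and 76 in treated cells (81.7%, 72.7% to 88.3%), and 67 had one in both. The intervals cover counting error over genes only. HSPA1L counted in both lists only through the HSPA1A peak, which lies on the strand opposite to HSPA1L. A gene-strand start peak was found at 34 and 38 of the 93 (36.6% and 40.9%), and a gene-strand peak after the end at 36 and 39 (38.7% and 41.9%). Peaks at both ends were found at 14 and 17 (15.1% and 18.3%), against 7 and 8 of the 10 heat shock protein genes above.

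By class, the cytosolic chaperonin TRiC and its partner prefoldin came closest to the 10 genes, with a downstream peak at 10 of 14 genes in untreated and 9 in treated cells. Small heat shock proteins had a downstream peak at 0 of 9 genes in untreated cells and at 1 of 9, HSPB1, in treated cells. Neither the other HSP90 genes (0 of 2) nor the heat shock factor class (0 of 4) had any in either list. The share of all protein-coding genes was 16.5% in untreated and 16.9% in treated cells. In untreated cells the upper Wilson limits of these classes were 29.9%, 65.8% and 49.0%, all above that share. Their low counts therefore cannot be told from the background. The widest untreated peaks of the list were at SIL1 (3250 bp, on the strand opposite to the gene), CCT4 (2750 bp), STIP1, PTGES3 and CCT5 (2500 bp each) and HSPA4 (2250 bp, the same as at CDC37). In treated cells they were at SIL1 (3250 bp), CCT4 and CCT5 (3000 bp each), CCT2 (2750 bp), and PTGES3 and PPP5C (2500 bp each). Leaving SIL1 aside, each of these peaks was on the gene strand and began within 2950 bp after the transcript end or, at CCT5, 1000 bp before it.

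**Figure D4:**
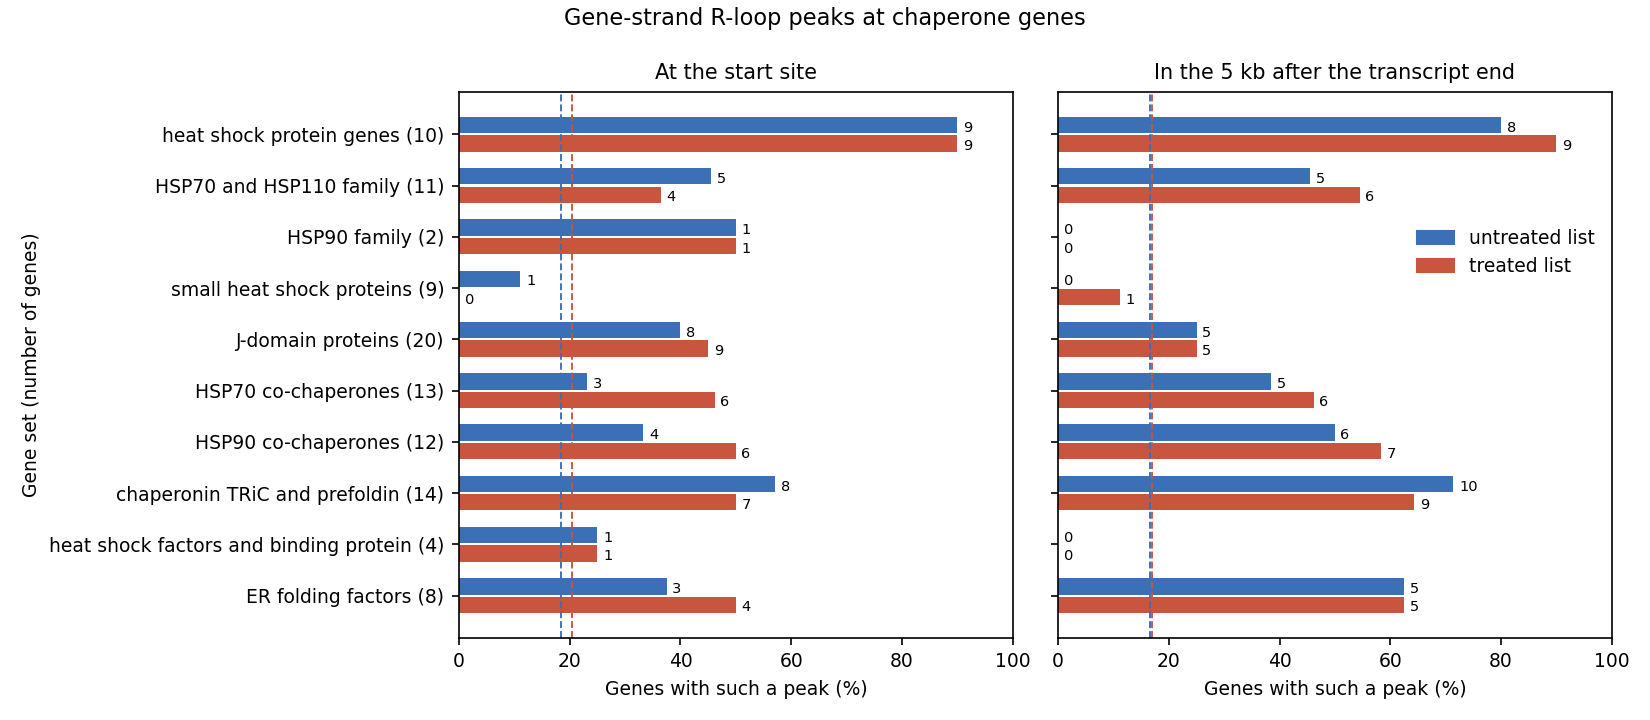
Percentage of genes with a gene-strand R-loop peak within 1 kb of the canonical start site (left) and in the 5 kb after the transcript end (right), for the 10 heat shock protein genes and for 9 classes of other chaperone genes, with the number of genes beside each bar. Blue is untreated and red treated, and dashed lines are the shares of all protein-coding genes. The 10 genes reach 9 of 10 at the start and 8 and 9 of 10 past the end, and the chaperonin class follows past the end with 10 and 9 of 14.

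A peak in 1 list only was found at 11 of the 93 genes (11.8%), near the 13.0% of protein-coding genes for which this held. In untreated cells only, they were at DNAJC11 and at CCT8, a TRiC subunit, both with 750 bp at the 5′ part of the gene. In treated cells only, they were at TRAP1, the mitochondrial HSP90, and at DNAJB9, DNAJC2, BAG1, BAG2, FKBP5, FKBP8, PFDN1 and PDIA3. The widest of these were 750 bp at BAG1, FKBP8 and PDIA3, and 500 bp at the others. No peak was listed in either condition for 15 genes, among them HSPA6, an HSP70 gene that is silent without stress, HSPB8, CRYAA, CRYAB, STUB1 and HSF1, the main heat shock factor.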

How the data were processed

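The lists were deposited by the authors as positions, with 4 columns (chromosome, start, end, strand) and no score, so no count, signal or p-value was available. Before that, the authors' methods name adapter trimming (Trim Galore), alignment (Bowtie2, default settings, hg19), removal of duplicated reads (Picard) and R-loop definition from both replicates after an earlier protocol. Peak thresholds and any later filter on reads with several best places were not given in the sources used here. GEO places each list under the first replicate, and it was read as the list of the whole condition. The depth is unknown.

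Starts were made 1-based. Genes, canonical transcripts and bases came from GENCODE release 44 mapped to GRCh37 and the GRCh37 genome. The background was all protein-coding genes on chromosomes 1 to 22 and X, of which 279 without a canonical transcript used their longest transcript. Peaks off chromosomes 1 to 22 and X, or with more than 50% unknown bases (N), were left out of base composition. Words of 50 bases were searched on both strands of the genome. Overlaps were checked with bedtools 2.31.1 and tested on simulated data. The work used Python 3.11.15, numpy 2.4.6, scipy 1.17.1, pysam 0.24.0, samtools 1.23.1 and matplotlib 3.10.9.

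The 10 genes, the chaperone list and the motifs were chosen with earlier results of these data known, and the start and downstream windows, the identical-border shares and the count of divergent pairs were added after the peaks were seen. Named genes were the 10 genes with every peak, any other gene under those peaks, the 6 genes of the chaperone list with the widest peak per list, and its genes with a peak in 1 list only. Of the 15 genes without a peak, those named were picked afterwards.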

Additional observations from a re-analysis of the deposited data

How the results depend on the processing

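No paired analysis was possible because the results come from 1 list per condition and no test, and for the same reason no replicate could be left out. Of 56 alternative values, 40 stayed within 1.5 times the count or within the interval of the share. All 10 genes had a peak in both lists with 5 kb on either side, with the peak on the gene strand or with peaks of at least 750 bp, and 9 did in treated cells without a flank. With any peak within 1 kb of the start site, 9 did in both lists. Without the flank fewer peaks belonged to the genes, since most downstream peaks lie outside the records. Shared peaks then numbered 12 untreated and 13 treated, and gene-strand peaks 11 and 13. These are counts and not shares of the remaining peaks. The share of protein-coding genes with a peak was 31.8% and 34.2% without a flank and 45.5% and 47.8% with 5 kb, and over all annotated genes 19.2% and 20.3%. Windows added after seeing the data gave downstream peaks at 8 and 9 genes within 2 kb (background 13.0% and 12.9%) and at 9 and 10 within 10 kb (18.9% and 19.5%), the HSPA1A peak then being the HSPA1B start peak. Start peaks stayed at 9 genes with 500 bp or 2 kb. Words found elsewhere in the genome were 12.4% and 12.1% at 50 bases and 24.3% and 24.5% at 31 bases.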

Other observations

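The arrangement of a gene-strand peak at the start and another after the end recurred in several classes of the 93 other chaperone genes. It was found in both lists at TCP1, CCT2, CCT4, CCT5 and PFDN5 of TRiC and prefoldin, at HSPA4 and HSPH1 of the HSP110 type, at the HSP90 partners CDC37 and PTGES3 (p23), at BAG3, an HSP70 nucleotide exchange factor, at DNAJB14, and at CALR and SERPINH1, the ER lectin calreticulin and the collagen chaperone HSP47. CCT3 showed it in untreated cells only, and HSPA4L, ST13, FKBP5 and PDIA3 in treated cells only. At HSPA4L, HSPH1, FKBP5 and PDIA3 only 1 treated peak lay on the record or 2 kb on either side. The treated peak after the end therefore lay further out at these genes. Whether other genes lie under the downstream peaks of the 93 genes was not examined. Among 20 J-domain genes DNAJB14 was the only one with peaks at both ends in either list (5.00%). This was near the 5.65% and 6.24% of all protein-coding genes. A peak somewhere was found at 17 and 18 of the 20, against 41.8% and 43.9% of protein-coding genes. The genes named in this paragraph were picked after their values were seen.

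In untreated cells the widest peak of CCT4 began 653 bp past the transcript end, that of PTGES3 838 bp, of BAG3 818 bp, of CDC37 465 bp and of CALR 542 bp. BAG3 had a peak of 1250 bp without and 2000 bp with treatment from the same near border, and CCT2 2000 bp and 2750 bp, while at PTGES3 and CDC37 the widths of 2500 bp and 2250 bp were the same in both. No test of these differences was possible with 1 list per condition.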
